A study of Homo sapiens with 6 samples.

Results

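The genes of the spliceosome core were followed in Myc chromatin immunoprecipitation sequencing (ChIP-seq) data. They were defined by symbol, as the protein-coding genes named SNRP, LSM1 to LSM8, SF3A, SF3B, PRPF or SRSF with a number, U2AF1 and U2AF2. The rule found 56 genes of 19785 protein-coding genes in the annotation. It used no measured value, but it was chosen with earlier results of these data known. The series holds 6 samples of MDA-MB-231, an established human triple-negative breast cancer cell line. Myc was precipitated with antibody D3N8F from parental cells and from TKO cells, in which TXNIP was knocked out with CRISPR-Cas9, with 2 Myc libraries per line described as biological replicates. The remaining 2 samples are input chromatin, 1 per line, and their own signal was not analysed here. The comparison addresses whether loss of TXNIP, the thioredoxin-interacting protein, alters the places where Myc binds. Both lines were grown in the same DMEM-based medium with fetal bovine serum, with no treatment named. The TKO line grew from a single edited cell, so the knockout cannot be told apart from other differences between a clone and its parental population. TXNIP itself had no Myc promoter peak in any of the 4 lists, so these lists do not check the knockout.

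The spliceosome removes introns from pre-mRNA, and it is built from small nuclear ribonucleoproteins (snRNPs), each a small nuclear RNA with its proteins. Sm proteins form a ring around the U1, U2, U4 and U5 RNAs, a related LSM ring sits on U6, SF3A and SF3B anchor U2 at the branch point, U2AF marks the end of the intron, PRPF proteins build and drive the later assemblies, and SR proteins guide the choice of splice sites. Myc is a transcription factor that binds DNA with its partner Max, most tightly at the E-box CACGTG, and genes for RNA processing are among its well-known targets.

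For parental cells the deposited lists held 3720 and 5719 peaks, and for TKO cells 27213 and 25887, given throughout as replicate 1 and then replicate 2, and parental before TKO where 4 values follow each other. The depth recovered from the peak statistics was 26.4 and 22.2 M reads for the parental line and 19.9 and 13.0 M for TKO, so the longer lists came from the shallower libraries. A promoter peak was a peak whose summit lay within 1 kb of an annotated start of the gene, its transcription start site (TSS). When a gene had several in a library, the peak with the highest fold enrichment was taken, and a gene with a promoter peak is called bound. Fold enrichment is the authors' ratio of summit reads to local background, and percentile is the rank of that fold within its own list, with 100 for the strongest peak. The level at a summit is given in RPM, the reads stacked there per M reads of the library. With 2 libraries against 2, the exact two-sided permutation test has 6 splits and cannot give a p below 0.33.

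Myc peaks were listed at the promoters of all but 2 of the members in TKO cells and at over 50% of them in parental cells. In parental cells 30 and 30 of the 56 members had a promoter peak, 53.6% in each library (95% Clopper-Pearson interval 39.7% to 67.0%), beside 12.2% and 12.9% of all protein-coding genes. In TKO cells 54 and 54 members had one, 96.4% in each library (87.7% to 99.6%), beside 49.1% and 49.7% of all genes. The intervals cover counting error only. The members' count was 1.8-fold higher in TKO cells, and the lines did not overlap, with an exact two-sided permutation p of 0.33, the smallest this design allows. The share of all genes rose by a larger factor than the members' count. The ratio depended on the length of the lists. With the 3720 most significant peaks kept in each library, 30 and 23 members were left with a promoter peak in parental cells. In TKO cells 29 and 27 were left, a ratio of 1.06. Of all genes, 2418 and 1794 were left in parental cells against 2635 and 2681 in TKO cells.

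The members stood above the other genes in both lines. The share of members with a promoter peak minus the share of other genes was 41.1 ± 0.473 percentage points (SD, n = 2) in parental cells and 47.1 ± 0.444 percentage points in TKO cells. The margins differed by 5.99 percentage points (exact two-sided permutation p = 0.33). Members bound were equal in number within each line, so these SDs came from the other genes alone and are no yardstick for that difference. By ratio the order was the opposite: members were at 53.6% beside 12.4% of other genes in parental cells, and at 96.4% beside 49.3% in TKO cells. With lists of equal length the margins were 36.8 and 36.7 percentage points.

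**Figure D1:**
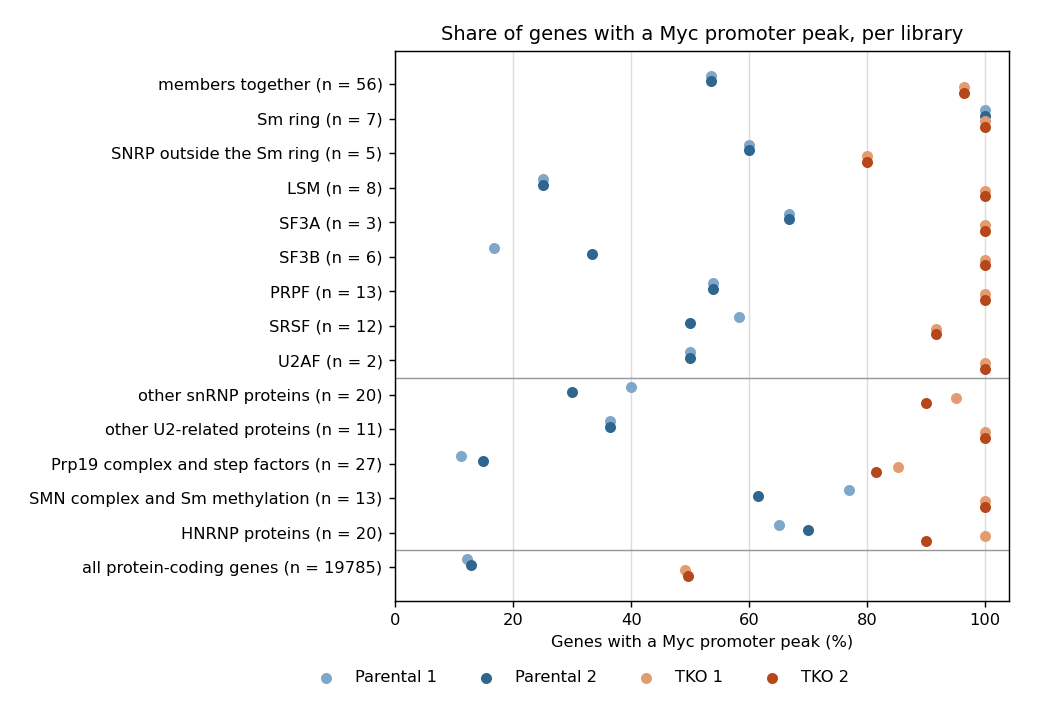
Each point is the percentage of genes in a group (horizontal axis) with a Myc promoter peak in 1 library, for the 56 members together, their protein families, 5 further splicing lists and all protein-coding genes. Members lie at 53.6% in both parental libraries and 96.4% in both TKO libraries, and the Sm ring is at 100% in all 4.

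Of the 56 members, 27 had a promoter peak in all 4 libraries, 6 in 1 parental and both TKO libraries, and 21 in both TKO libraries and no parental library. Of all protein-coding genes 9.32%, 6.16% and 29.8% fell into these classes, and 46.3% had no promoter peak in any library. The 2 members with no promoter peak in any library were SNRPN and SRSF12. No member had a peak in parental cells and none in TKO cells, and none had a peak in only 1 of the TKO libraries. Of all genes 8.2% had a promoter peak in 1 TKO library and no parental library. Peaks in parental but not TKO cells were rare over all genes too. Only 0.0607% had one in 1 parental and no TKO library, and 0.00505% in both parental and no TKO library. The absence of such a class among 56 members therefore says little about them. Among the 54 members bound in both TKO libraries, 27 (50.0%, interval 36.1% to 63.9%) were also bound in both parental libraries, beside 20.6% of the 8949 genes bound in both TKO libraries.

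**Figure D2:**
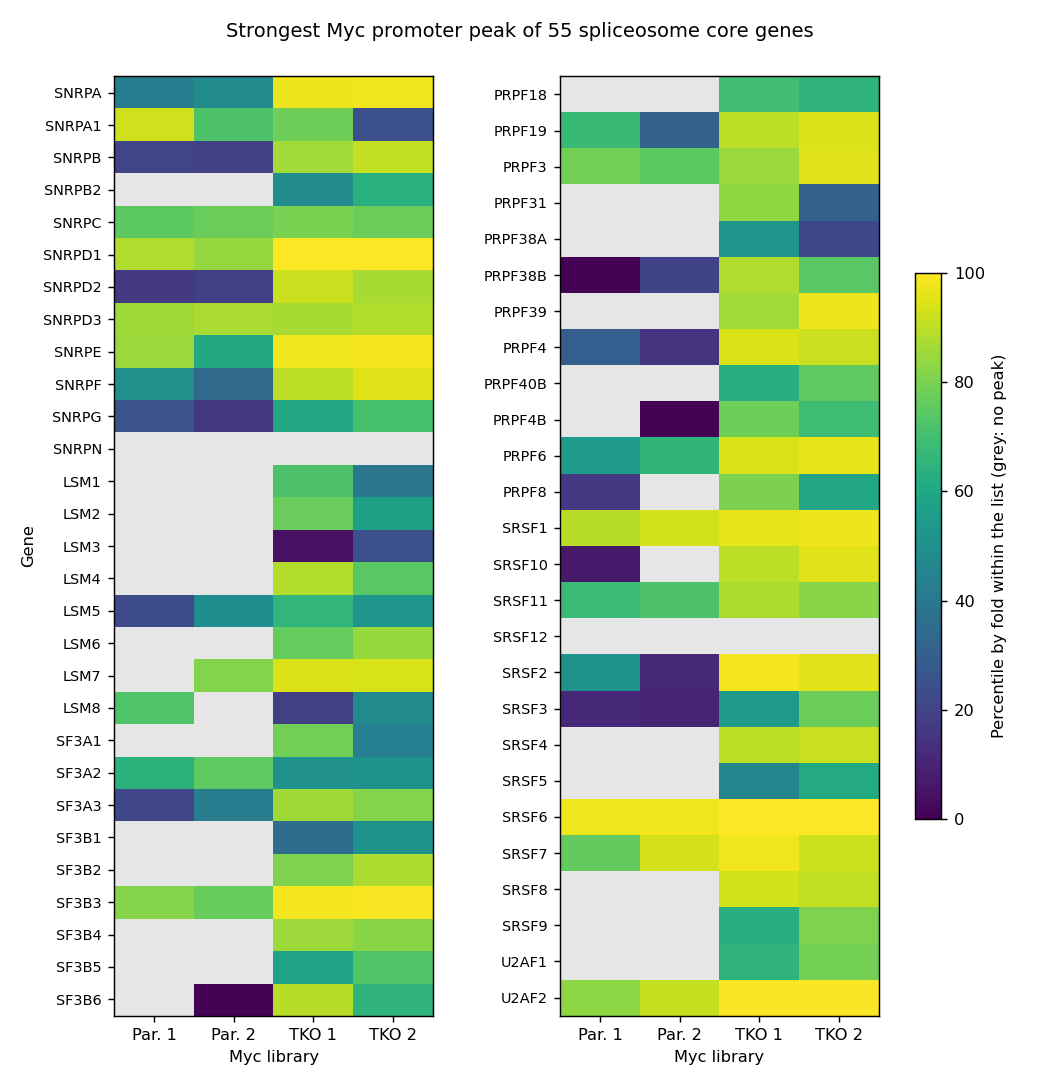
Colour gives the percentile by fold, within each library's own list, of the strongest promoter peak of 55 members, with libraries in columns and grey where a gene had no promoter peak. SNRPN and SRSF12 are grey throughout, the Sm ring genes (SNRPB, SNRPD1 to SNRPD3, SNRPE, SNRPF and SNRPG) are coloured throughout, and most LSM and SF3B genes are grey in the parental columns.

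The SNRP family encodes the Sm proteins and the particular proteins of U1 and U2. Of its 12 genes, 10 had a promoter peak in each parental library and 11 in each TKO library. The 7 genes of the Sm ring, a subset counted after the values were seen, had a promoter peak in every library: SNRPB, SNRPD1, SNRPD2, SNRPD3, SNRPE, SNRPF and SNRPG. The 5 others were SNRPA and SNRPC of the U1 particle and SNRPA1 of the U2 particle, bound in all 4 libraries, SNRPB2 of U2, bound in TKO cells only, and SNRPN. SNRPN, a close relative of SNRPB expressed from an imprinted region of chromosome 15 (chr15:25068784-25223870, hg19), was without a peak.

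SNRPE, which encodes a small Sm protein of the ring, had the highest read level of the members in each of the 4 libraries. Its summit held 3.59 and 3.29 RPM in parental cells against 8.22 and 9.66 in TKO cells. Both TKO values lay above both parental values, a ratio of means of 2.60. The TKO replicate 1 peak (chr1:203830480-203831296) lay over the start of the gene, with its summit 5 bp downstream of the TSS. The bases beside this summit are shown because they hold a binding motif of ETS transcription factors and no E-box, with the ETS motif in capitals, from the plus strand of hg19 at chr1:203830723-203830752.
SNRPE: ggttctttattCCGGAAGTtgctctcagag

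SNRPD1 had the highest fold of the Sm genes in TKO cells. Its promoter peak had a fold of 8.57 and 7.18 in parental cells and of 31.1 and 28.0 in TKO cells, percentiles of 88.1, 84.0, 99.9 and 99.8. Its summit held 1.89 and 1.58 RPM against 5.87 and 6.60, and the lines did not overlap by either measure. The TKO replicate 1 peak was at chr18:19191886-19193024.

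The rest of the Sm ring ranged widely in rank. SNRPB had percentiles of only 20.9 and 19.6 in parental cells and of 86.2 and 90.7 in TKO cells, and its summit reads were 1.89, 1.80, 5.46 and 6.52 RPM. SNRPD3 ranked high in all 4 lists, at 85.7, 87.4, 86.8 and 88.3. SNRPD2 and SNRPG ranked low in parental cells, SNRPD2 at 17.0 and 19.0 and SNRPG at 25.7 and 16.1. The strongest SNRPD2 peak lay at -3 bp from the TSS in parental replicate 1 and at -313, -420 and -444 bp in the other libraries. SNRPF was between them and SNRPD3 in parental cells, at 50.2 and 34.5, and reached 90.1 and 95.0 in TKO cells.

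Among the U1 and U2 proteins, SNRPA, which binds a stem loop of U1 RNA, had percentiles of 42.1 and 48.2 in parental cells and of 97.4 and 98.0 in TKO cells. The SNRPA peak also lay within 1 kb of a TSS of ACTMAP. SNRPC, which helps U1 recognise the 5′ splice site, was at 74.7, 77.4, 79.9 and 77.5, nearly the same rank in each list. SNRPA1 went the other way by fold, with 9.82 and 6.24 in parental cells against 7.55 and 4.60 in TKO cells, while its RPM were 0.908, 0.586, 1.85 and 1.76. Fold and reads thus gave opposite orders of the line means for SNRPA1, and its fold values overlapped between the lines. Its strongest peaks were also at different places, 389, -179, 377 and -105 bp from the TSS.

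In the LSM family, LSM2 to LSM8 form the ring on U6, and LSM1 replaces LSM8 in a cytoplasmic ring for mRNA decay. Of its 8 genes, 2 had a promoter peak in each parental library (25%, beside the 12.2% and 12.9% of all genes). All 8 had one in each TKO library, beside 49.1% and 49.7% of all genes. Whether so small a family differed from all genes was not tested. LSM5 was the only LSM gene bound in both parental libraries. LSM7 had a peak in parental replicate 2 (percentile 81.5) and LSM8 in parental replicate 1 (72.4), while LSM1, LSM2, LSM3, LSM4 and LSM6 had none in parental cells. In TKO cells LSM7 ranked highest of the family at 94.7 and 94.0, and LSM3 lowest at 4.40 and 24.5. The LSM7 peak also lay within 1 kb of a TSS of SPPL2B.

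LSM4 had the highest mean rank among the LSM genes bound in TKO cells only, at 88.4 and 74.6 beside 76.2 and 84.6 for LSM6, with 2.81 and 2.84 RPM. The 101 bases centred on its replicate 1 summit, at -194 bp from the TSS (negative is upstream), are shown as an example of a TKO promoter summit with neither an E-box, nor CACGCG, nor the ETS motif (plus strand of hg19, chr19:18434030-18434130, no capitals).
LSM4: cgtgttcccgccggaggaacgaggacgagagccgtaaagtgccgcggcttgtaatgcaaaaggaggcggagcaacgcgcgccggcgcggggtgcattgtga

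LSM5 was the single member bound in all 4 libraries whose summit reads overlapped between the lines, at 1.14 and 1.35 RPM in parental cells against 1.20 and 1.30 in TKO cells. The peaks compared were not at the same place. The strongest TKO peak by fold (chr7:32535175-32535458 in replicate 1) lay upstream of another LSM5 TSS and within 1 kb of the start of AVL9. At the parental position, a second TKO peak (chr7:32529657-32530206 in replicate 1) held 2.41 and 2.53 RPM, above both parental values. This second peak was looked up after the values were seen.

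SF3A and SF3B are the large protein assemblies of U2. All 3 SF3A genes and all 6 SF3B genes had a promoter peak in both TKO libraries. In parental cells 2 and 2 of the SF3A genes did, SF3A2 and SF3A3, against 1 and 2 of the SF3B genes. SF3B3 was bound in both parental libraries and SF3B6, which encodes the subunit next to the branch point adenosine, in parental replicate 2 only, near the foot of the list (percentile 0.420). SF3A1, SF3B1, SF3B2, SF3B4 and SF3B5 had peaks in TKO cells only.

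SF3B3 had the highest fold of them in each library. Its fold was 7.57 and 6.58 in parental cells against 17.7 and 22.8 in TKO cells, with 1.67, 1.44, 4.41 and 4.45 RPM at the summit, and the lines did not overlap. The peak also lay within 1 kb of the start of COG4, so it could not be assigned to SF3B3 alone. SF3B2 and SF3B4 led the SF3B genes bound in TKO cells only, at percentiles of 80.5 and 87.8 for SF3B2 and of 85.2 and 82.1 for SF3B4. SF3A2 ranked lower in TKO cells than in parental cells, at 64.3 and 75.3 against 50.5 and 50.9, although its RPM were 1.21, 1.40, 2.41 and 2.68. SF3A3 was at 21.1, 41.9, 85.6 and 81.5, with 1.70, 1.94, 3.96 and 4.83 RPM, above SF3B3 in all but TKO replicate 1.

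The ETS motif stood at the summits of 3 SF3 genes in TKO replicate 1, shown here with the motif in capitals on the plus strand of hg19, at chr19:2236803-2236832 for SF3A2, chr1:38455745-38455774 for SF3A3 and chr11:65819771-65819800 for SF3B2. SF3B1, which clamps the branch point and is often mutated in myelodysplasia, had an E-box 21 bp from its replicate 2 summit and 84 bp from its replicate 1 summit, at chr2:198299843-198299872, with the E-box in capitals. Its peak was of middle rank, at 35.9 and 50.9.
SF3A2: tctcatttgccCCGGAAGTgctttctttgc
SF3A3: ttccgcgagtgCCGGAAGTgccccgggact
SF3B2: atacggcgccaCCGGAAGTtccggcaagtg
SF3B1: tccgtcgggtgaCACGTGacagaactgcca

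U2AF recognises the pyrimidine tract and the AG at the 3′ end of the intron. U2AF2, its large subunit, had a promoter peak in all 4 libraries, and U2AF1, its small subunit, in both TKO libraries only. U2AF2 had a fold of 7.73 and 8.23 in parental cells and of 24.4 and 22.0 in TKO cells, percentiles of 82.9, 91.1, 99.5 and 99.4. Its summit reads were 1.14, 1.44, 3.86 and 4.30 RPM, without overlap. U2AF1 was at percentiles of 65.0 and 79.1.

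The U2AF2 peak lay inside the gene, 505 to 621 bp downstream of an internal start site in the 4 libraries, outside any exon at the summit. A second, weaker peak before the first base of the gene (chr19:56165512-56186082), at -322, -321 and -284 bp from it, was listed in parental replicate 2 and in both TKO libraries, at percentiles of 8.68, 76.8 and 90.6. The E-box of the strong peak was 44, 7, 109 and 9 bp from the summits, so that only in TKO replicate 1 did it fall outside 50 bp. It is shown with the E-box in capitals (plus strand, hg19, chr19:56167000-56167029).
U2AF2: ctttccttccttCACGTGgatgagggcaga

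The PRPF genes encode pre-mRNA processing factors, many of them parts of the U4/U6.U5 tri-snRNP. All 13 had a promoter peak in both TKO libraries, and 7 in each parental library. The 6 bound in all 4 libraries included PRPF3, PRPF4 and PRPF6 of the tri-snRNP, PRPF19, the ubiquitin ligase that helps to form the active spliceosome, and PRPF38B. PRPF8, which holds the catalytic centre, had a peak in parental replicate 1 and the kinase gene PRPF4B in parental replicate 2. PRPF18, PRPF31, PRPF38A, PRPF39 and PRPF40B were bound in TKO cells only.

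PRPF6 had the highest read level of the family, at 2.80 and 2.34 RPM in parental cells against 5.46 and 6.75 in TKO cells. PRPF39 ranked high among the PRPF genes bound in TKO cells only, at percentiles of 86.3 and 97.4. PRPF40B, also of that group, was at 63.2 and 75.4, while PRPF38A was at 52.1 and 21.6. PRPF31, mutated in a form of retinitis pigmentosa, was at 83.4 and 31.6, the replicates differing widely.

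PRPF19 and PRPF3 were the only members with an E-box within 50 bp of the summit in every library. For PRPF19 the E-box was 30, 18, 6 and 29 bp from the summits, in exon bases annotated as untranslated, and for PRPF3 it was 15, 7, 31 and 24 bp away, just upstream of the annotated start of the gene. PRPF19 had 1.32 and 1.17 RPM in parental cells against 2.91 and 3.84 in TKO cells. PRPF3 had 1.25, 1.13, 2.51 and 3.99. Neither gene overlapped between the lines. Both sites are shown with the E-box in capitals (plus strand, hg19, chr11:60673992-60674021 for PRPF19 and chr1:150293904-150293933 for PRPF3). The 101 bases at the replicate 1 summit of PRPF6 in TKO cells, chr20:62612270-62612370, are shown with the related motif CACGCG in capitals.
PRPF19: agcgtagcgcttCACGTGggaatggggaca
PRPF3: gccctccttggtCACGTGttgggagacagc
PRPF6: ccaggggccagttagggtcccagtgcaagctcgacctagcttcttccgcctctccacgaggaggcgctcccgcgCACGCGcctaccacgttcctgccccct

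The SRSF genes encode SR proteins, which bind exons and recruit U1 and U2AF. Of the 12 genes, promoter peaks were listed for 7 and 6 in parental cells and for 11 in each TKO library. SRSF1, SRSF2, SRSF3, SRSF6, SRSF7 and SRSF11 were bound in all 4 libraries and SRSF10 in parental replicate 1 and both TKO libraries. SRSF4, SRSF5, SRSF8 and SRSF9 were bound in TKO cells only, and SRSF12 (chr6:89805678-89827790) in none.

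SRSF6 had the highest rank of any member in all 4 lists. Its fold was 13.0 and 11.2 in parental cells against 32.4 and 28.6 in TKO cells, percentiles of 97.7, 97.7, 99.9 and 99.8. It held 2.27, 1.76, 6.52 and 7.90 RPM, a ratio of 3.58. The SRSF6 peak also lay within 1 kb of a TSS of another annotated protein-coding gene, so it could not be assigned to SRSF6 alone. SRSF1, the founding SR protein, ranked next by the mean of both parental percentiles, 89.4 and 93.2. Its strongest parental peaks lay 551 and 584 bp downstream of the TSS, apart from weaker ones near the TSS, while TKO cells had single peaks 1663 and 1794 bp wide with summits within 29 bp of the TSS. SRSF1 reads were 1.48 and 1.44 RPM in parental cells against 4.16 and 4.76 in TKO cells.

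SRSF7 was at percentiles of 75.8, 93.5, 97.9 and 92.3, at a promoter shared with GEMIN6, a gene of the complex that loads Sm proteins onto RNA. SRSF2, at a promoter shared with MFSD11, was at 51.0, 11.6, 98.1 and 95.4. SRSF11 was at 68.1 and 72.1 in parental cells, and its strongest TKO peak, at 87.6 and 82.1, lay at another start site of the gene (chr1:70686922-70687396 in replicate 1). At the parental place the TKO lists held SRSF11 peaks at 67.7 and 75.7, with 3.16 and 2.84 RPM against 1.17 and 1.22. These peaks were looked up after the values were seen. SRSF3 ranked low by fold in parental cells, at 11.5 and 10.3, yet held 2.19 and 1.94 RPM there, among the highest of the members. SRSF3 held 4.06 and 4.83 RPM in TKO cells, both above the parental values.

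SRSF8, PRPF39 and SRSF4 had the highest mean ranks of the 21 members bound in TKO cells only. SRSF8 was at 93.2 and 90.7 and SRSF4 at 90.2 and 91.9. SRSF9 was at 62.9 and 80.5, at a promoter shared with DYNLL1. Over these 21 members, ranks ran from 4.40 (LSM3) to 93.2 in replicate 1 and from 21.6 (PRPF38A) to 97.4 in replicate 2. The SRSF8 summit lay 380 and 409 bp downstream of the TSS, in coding sequence. Its 101 bases in replicate 1 (plus strand, hg19, chr11:94800413-94800513) held CACGCG on the minus strand at 2 places, read as CGCGTG in capitals.
SRSF8: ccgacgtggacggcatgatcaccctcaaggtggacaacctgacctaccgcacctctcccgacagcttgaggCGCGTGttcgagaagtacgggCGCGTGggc

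Read levels were compared over the 27 members with a promoter peak in all 4 libraries, since a gene without a listed peak has no summit reads. The median over these members was 1.59 and 1.44 RPM in parental cells against 3.81 and 4.30 in TKO cells, or 1.52 ± 0.104 against 4.05 ± 0.343 (SD, n = 2). The median ratio of TKO to parental means was 2.45, with 1.01 for LSM5, the lowest, and 3.59 for SNRPD1 and 3.58 for SRSF6 among the highest (exact two-sided permutation p = 0.33 over libraries). Both TKO values lay above both parental values for 26 of the 27, beside 99.0% of the 1843 genes bound in all 4 libraries. By fold enrichment the same was so for 25 of the 27, all but SNRPA1 and SF3A2, beside 92.0%. Over all 1843 genes the median ratio of reads was 2.56, so these members lay near the genes bound in all 4 libraries as a whole.

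The length to which reads were extended also differed between the lines, at 140 and 151 bp for parental libraries against 182 and 201 bp for TKO libraries, and a longer extension stacks more reads at a summit. Divided by this length, the median ratio was 1.86 for the members and 1.94 for all 1843 genes.

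**Figure D3:**
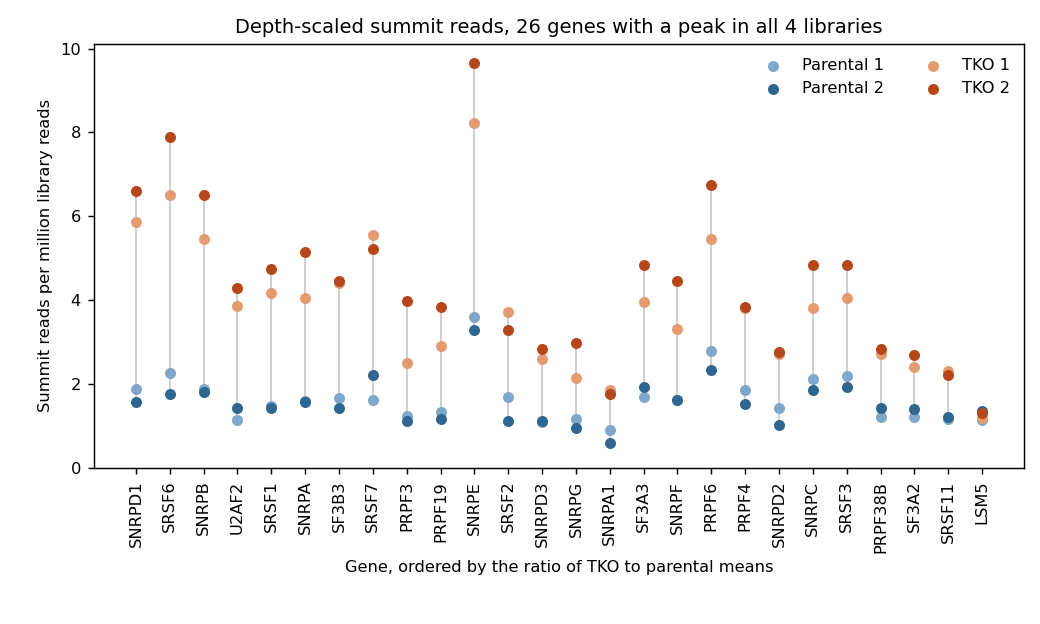
Summit RPM (vertical axis) in each of the 4 libraries for 26 of the 27 members with a promoter peak in all of them, ordered by the ratio of TKO to parental means, with a grey line joining lowest and highest. The TKO points lie above both parental points for each but LSM5, where, at the right end, the 4 points lie between 1.14 and 1.35 RPM.

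Members bound in both parental libraries had higher ranks in TKO cells than the rest. The median percentile in the TKO lists was 90.1 and 92.3 for the 27 members bound in both parental libraries, 84.7 and 67.0 for the 6 bound in 1, and 72.1 and 73.0 for the 21 bound in neither. Over all genes the same 3 classes were at 95.1 and 94.7, 82.1 and 81.7, and 62.6 and 63.3. The summit reads of the 21 members bound in neither parental library had a median of 1.55 and 1.99 RPM, against 3.81 and 4.30 for the 27.

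Over all members with a peak, median ranks were above those of all genes in both TKO libraries and in parental replicate 1, and below in parental replicate 2. The median percentile was 65.8 and 54.8 in parental cells, beside 56.8 and 56.8 for all genes with a promoter peak, and 85.4 and 81.8 in TKO cells, beside 71.0 and 70.6. Above percentile 90 of the TKO lists stood 19 (35.2%, interval 22.7% to 49.4%) and 21 (38.9%, 25.9% to 53.1%) of the 54 members, beside 22.0% and 20.9% of all genes with a promoter peak. The members' peaks were also wider, with medians of 305 and 276 bp (parental) and of 626 and 669 bp (TKO), beside 243, 241, 468 and 475 bp for all genes. Over 1 kb wide in TKO cells were 11 and 11 of 54 (20.4%), beside 9.71% and 8.66%.

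Some of these promoters start another gene as well, and a difference from all genes in this was not detectable with this number of members. In TKO cells the strongest promoter peak of 19 and 19 of the 54 members (35.2%, interval 22.7% to 49.4%) lay within 1 kb of a TSS of another protein-coding gene. The values over all genes, 24.4% and 24.7%, lay inside the interval. A peak of this kind cannot be assigned to either gene. The pairs of replicate 1 included LSM3 with the DNA repair gene XPC, PRPF38A with the replication gene ORC1, PRPF4 with CDC26, PRPF31 with TFPT, SNRPD3 with GUCD1, SNRPD2 with QPCTL and LSM1 with BAG4. Without the genes that shared a peak, 36 members remained, of which 18 and 16 had a promoter peak in parental cells against 34 and 34 in TKO cells. Of all genes under the same exclusion, 1602 and 1673 had one in parental cells against 7179 and 7271 in TKO cells. The share of members minus that of other genes was then 37.7 percentage points in parental cells and 52.3 in TKO cells.

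Summits of the members lay close to the TSS. The median distance to the nearest TSS of the gene came to 45.0 and 69.5 bp for parental libraries and to 79.0 and 86.0 bp for TKO libraries, beside 108, 108, 150 and 146 bp over all genes with a promoter peak. Summits within 200 bp of a TSS made up 27 and 26 of 30 in parental cells (90.0% and 86.7%) and 43 and 46 of 54 in TKO cells (79.6% and 85.2%), beside 65.6%, 66.8%, 57.7% and 59.1%. Members and all genes both had a median of 2 annotated start sites. The summits of a member in the replicates of a line were a median of 33 bp apart in the parental line and 50 bp apart in TKO.

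**Figure D4:**
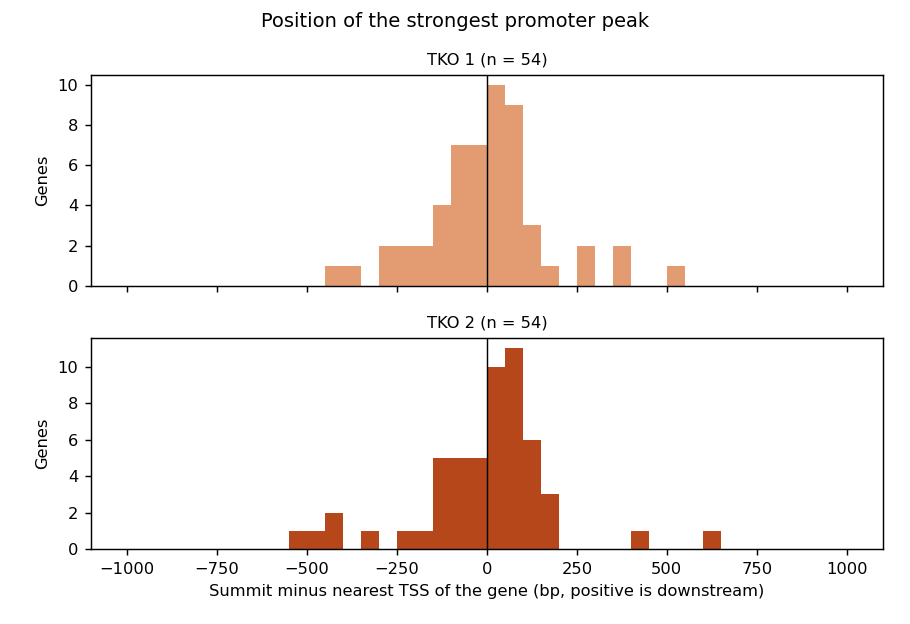
Number of members (vertical axis) by the position of the strongest promoter peak's summit relative to the nearest TSS of the gene in bp (horizontal axis, positive downstream, 50 bp bins), for the 54 members bound in each TKO library. Most summits fall within 200 bp of the start, 43 in replicate 1 and 46 in replicate 2.

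The E-box was rare at these summits. CACGTG, which reads the same on both strands, stood within 50 bp of the strongest promoter summit of 3 and 3 of 30 members in parental cells (10.0% each, interval 2.11% to 26.5%), beside 21.6% and 18.5% of all genes with a promoter peak. In TKO cells it did for 2 of 54 (3.70%, 0.452% to 12.7%) and 4 of 54 (7.41%, 2.06% to 17.9%), beside 9.14% and 8.10%. The members' intervals hold the value of all genes in every library, so a difference from other genes near the summit was not detectable with this number of members. The genes with an E-box were those whose sites are printed above, PRPF19 and PRPF3 in all 4 libraries, U2AF2 in 3 and SF3B1 in 1. The parental and TKO shares of the members differed by -4.44 percentage points, TKO minus parental (exact two-sided permutation p = 0.33).

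Among the 27 members bound in all 4 libraries, 2 and 3 (7.41% and 11.1%) had an E-box at the TKO summit, beside 21.2% and 20.7% of the 1843 genes bound in all 4. Whether these small counts fell below all genes by more than counting error was not tested. The E-box share also differed between shared promoters and the rest. Of the members with a shared peak in any library, 12 and 14 were bound in parental cells and 20 in each TKO library. None of them had an E-box at the summit, which allows shares of up to 25%, 21.4%, 15.0% and 15.0%, beside 19.4%, 16.8%, 7.99% and 7.58% of all genes at shared promoters. At the other members the shares were 16.7%, 18.8%, 5.88% and 11.8%, beside 22.7%, 19.4%, 9.54% and 8.28%, so the margin below other genes was reduced in parental cells and absent in TKO replicate 2. Anywhere in the peak, an E-box was found for 3 and 3 of 30 (10.0%) in parental cells and for 11 (20.4%) and 10 (18.5%) of 54 in TKO cells, beside 32.6%, 30.8%, 23.2% and 21.9%. The parental intervals for the whole peak, 2.11% to 26.5%, lay below the values of all genes, and the TKO intervals, 10.6% to 33.5% and 9.25% to 31.4%, held them. In windows of the same length 1 kb to either side of the members' summits it was found in 0 of 60, 60, 108 and 108, which allows up to 5.00%, 5.00%, 2.78% and 2.78%.

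**Figure D5:**
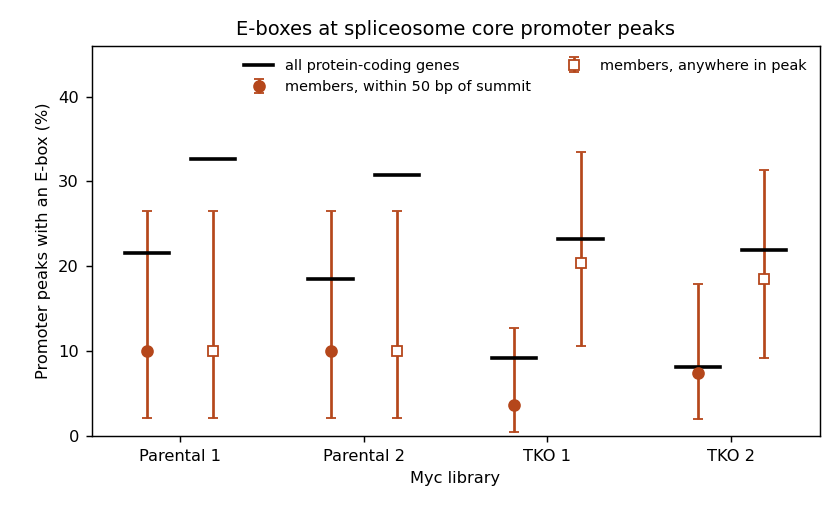
Percentage of the members' strongest promoter peaks with an E-box (vertical axis) in each library, within 50 bp of the summit (filled circles) or anywhere in the peak (open squares), with 95% Clopper-Pearson intervals, and the same over all protein-coding genes with a promoter peak as black lines. The members lie below the black lines in parental cells, where the line for the whole peak is above the interval, and close to them in TKO cells.

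The other motifs had shares whose intervals held those of all genes. CACGCG on either strand was within 50 bp of the summit for 7 (13.0%, interval 5.37% to 24.9%) and 5 (9.26%, 3.08% to 20.3%) of 54 members in TKO cells, beside 10.1% and 9.50% of all genes. It was found in both replicates at PRPF6, SRSF2, SRSF7 and SRSF8. The ETS motif CCGGAAGT on either strand was found for 4 (7.41%, 2.06% to 17.9%) and 5 (9.26%, 3.08% to 20.3%), beside 3.07% and 3.40%, in both replicates at SF3A2, SF3A3 and SNRPE. None of the 3 motifs contains another. The GC content within 100 bp of the summit had medians of 64.2%, 62.7%, 63.4% and 65.2% for the members and 64.2%, 63.2%, 64.2% and 64.7% for all genes.

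Other genes of the pathway were taken as 5 lists of 91 genes outside the rule. Over all 91, 38 and 36 had a promoter peak in parental cells against 86 and 82 in TKO cells, shares of 41.8%, 39.6%, 94.5% and 90.1%, beside the 12.2%, 12.9%, 49.1% and 49.7% of all genes given above. The list nearest the Sm ring, the SMN complex and the methylosome that prepare and load Sm proteins, had 10 and 8 of 13 in parental cells against 13 and 13 in TKO cells. Its genes bound in both parental libraries were PRMT5, WDR77 and CLNS1A of the methylosome and DDX20, GEMIN5, GEMIN6, GEMIN7 and GEMIN8 of the SMN complex. The peak of the member SRSF7 lay within 1 kb of a TSS of GEMIN6 too, so it counted for both genes. SMN1 and SMN2 lie in near-identical copies of a chromosome 5 segment, so peaks there cannot be assigned with certainty.

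The Prp19 complex and the factors of the catalytic steps, a list of 27 genes, had the lowest parental shares of the 5 lists, with 3 and 4 genes bound in parental cells (11.1% and 14.8%) and 23 and 22 in TKO cells (85.2% and 81.5%). The isomerase gene PPIL1 was its only gene bound in both parental libraries, so that the parental shares of this list lay near those of all genes. Among 20 further snRNP proteins, 8 and 6 were bound in parental cells against 19 and 18 in TKO cells. The helicase gene SNRNP200, the GTPase gene EFTUD2 and SNRNP70 of U1 were among those in both parental libraries. Of 11 further U2-related genes, 4 and 4 were bound in parental cells, CHERP, DDX42, DDX46 and PUF60, and 11 and 11 in TKO cells. The 20 HNRNP genes, which encode abundant RNA-binding proteins that often oppose SR proteins, had 13 and 14 bound in parental cells against 20 and 18 in TKO cells. The list genes without a promoter peak in any library were PDCD7, PPIE and ZMAT2.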

How the data were processed

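Myc ChIP-seq was done in parental and TKO cells (n = 2 libraries each), and titles gave the groups. The authors aligned 50-cycle single reads to hg19 with NovoAlign (3.08.02) and called peaks in each library on its own against input with MACS2 (2.1.1.20160309). The deposited lists give for each peak a position, a summit offset, a score, the authors' fold enrichment (a ratio), and the −log10 p-value and −log10 q-value. How duplicate reads were treated is not given in the sources used here. No list held a peak beyond its chromosome's end in GRCh37.

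Promoter peaks were assigned to 19785 protein-coding genes by symbol, with 55754 start sites of basic transcripts (GENCODE v44 lifted to GRCh37), without the mitochondrial genome. Fold and significance were used to rank or filter within a list, and the score was not used. For genes bound in all 4 libraries, fold was also compared between the lines as given, with no scaling for depth. Summit reads were solved from fold and p-value for every peak, within 0.002 on the −log10 scale, and depth with an assumed genome size of 2700000000 bases. For the parental lists a scale on the treatment reads was fitted. Windows for motifs were read from GRCh37. Libraries were the replicates, and exact two-sided permutation tests compared them. Genes were named by rule: members bound in both parental libraries (the 15 highest by mean percentile), the 10 highest of those bound in TKO cells only, and those with no peak. Others are named where their family is described, and 1 member enters the counts but is not reported singly here. The members, the 5 lists and the rules were chosen with earlier results of these data known. Alternatives changed the threshold, list length, TSS window, transcript set, peak choice, motif window and libraries. The recovery of summit reads at a known scale and the assignment of planted summits to start sites were tested on simulated data. The fitted scale, the depth, the motif counts and the permutation test were not. Python 3.11.15, numpy 2.4.6, pandas 2.3.3, scipy 1.17.1, pysam 0.24.0 and matplotlib 3.10.9 were used.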

Additional observations from a re-analysis of the deposited data

How the results depend on the processing

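The limits are those of peak lists: a gene without a listed peak has no level, list lengths differ, depth was recovered under an assumed genome size, and the exact permutation test of 2 libraries against 2 cannot give a p below 0.33. Of the values under alternatives, 75 stayed within their limit and 28 passed it. The limit was 1.5-fold for the ratios and 1 SD between the libraries of a line for the other values. The members' E-box share was 10.0% in both parental libraries, an SD of 0, so any change in it passed the limit. Members bound were equal in number within each line, so the SDs of the margins came from the other genes alone. The counts of values therefore depend on these limits and do not measure stability. What moved the values was not tested.

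The ratio of members bound in TKO to parental cells, 1.8, became 2.73 with a fold of at least 5 and 1.06 with equal list lengths. The margin of members over other genes in parental cells became 35.6 percentage points at a −log10 q-value of at least 5, 25.1 at a fold of at least 5, 36.8 with equal lists, 37.7 without genes sharing a peak and 38.7 without genes with another gene's TSS within 1 kb, a choice made after seeing the data. In TKO cells it became 49.5, 50.8, 36.7, 52.3 and 53.6 under the same alternatives, 50.9 and 43.7 with windows of 500 bp and 3 kb, 46.2 with the start sites of every transcript and 46.5 with any overlap of peak and window.

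The members' E-box share in parental cells, 10.0%, became 11.6%, 13.4% and 11.5% under the q-value, fold and equal-list alternatives, 6.78% and 9.84% with windows of 500 bp and 3 kb, 9.84% with every transcript, and 17.7% without shared peaks or without nearby start sites. In TKO cells, 5.56% became 9.0% with equal lists and 8.82% in the last pair of alternatives. The share of all genes also rose with equal lists, to 18.6% for TKO replicate 1 and 17.1% for TKO replicate 2. The members stood at 6.9% and 11.1% in these equal lists, so they remained below all genes. Whether that margin exceeded counting error was not tested. The median distance to the TSS in TKO cells, 82.5 bp, became 76.2 bp with the strongest peak chosen by p-value.

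With each library left out in turn, the ratio of members bound stayed at 1.8, the margin ran from 40.8 to 41.5 percentage points in parental cells and from 46.8 to 47.4 in TKO cells, the read ratio from 2.33 to 2.72, the E-box share stayed at 10.0% in parental cells and ran from 3.70% to 7.41% in TKO cells, and the distance from 79.0 to 86.0 bp. As a replicate block, with same-numbered libraries compared, the ratio of members bound was 1.8 and the read ratio 2.48. The numbers were not taken to pair the libraries, since deviations of same-numbered libraries over 1843 genes had r = 0.0722.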
